A study of Mus musculus with 3 samples.

Results

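The cells described here are those of 3 single-cell libraries of mouse salivary gland organoids that carry the transcripts of late cell cycle. A barcode, which stands for 1 captured cell, was kept with 500 or more detected genes and with no more than 20% mitochondrial transcripts among its unique molecular identifiers (UMIs, each a counted transcript molecule). A kept barcode was taken as a G2/M barcode when it held at least 4 UMIs summed over the 9 rule genes Top2a, Mki67, Cdk1, Ube2c, Cenpf, Prc1, Ccnb1, Ccna2 and Birc5. The rule found 2453 G2/M barcodes among 42216 kept barcodes, 143 of 13219 in control, 1432 of 15041 in photon and 878 of 13956 in proton. The members were chosen by the UMI counts of these 9 genes, so their levels and the shares of G2/M barcodes are given as a description and without a test.

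Organoids are 3-dimensional cultures, grown here in Matrigel from submandibular gland cells of C57BL/6 mice aged 8 to 12 weeks. All groups shared WRY medium, whose additions per the labels include EGF, FGF2, insulin, dexamethasone, the kinase inhibitor Y27632, and Wnt3a and R-spondin1 conditioned media. The control group received no radiation, the photon group 7 Gy of photons on day 5 and the proton group 7 Gy of plateau protons on the same day. Organoids of 4 animals were collected on day 11, which was 6 days after irradiation, and 45000 cells negative for the dead-cell dye propidium iodide were sorted per sample. Each group is 1 library whose cells are not tied to animals by the labels, so differences between groups have no replicate check, no p-value is given, and a difference between animals, cultures or library preparations cannot be told apart from one between treatments.

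Cells enter mitosis when cyclin B and its kinase, encoded by Ccnb1 and Cdk1, become active at the end of G2, and they leave it when the anaphase promoting complex marks cyclins for destruction. Many genes of this stage share promoter elements that keep them silent in resting cells and on in late cycle, which is why their transcripts mark dividing cells. Ionising radiation breaks DNA, and damaged cells can hold the cycle through p53 and its target Cdkn1a, the gene of the inhibitor p21. Chromatin that reaches the cytosol after a faulty division can be sensed as foreign DNA, a route to interferon and its target genes.

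Promoter sequence of the rule genes is shown first, because these genes chose the cells. RefSeq (GRCm38.p6) promoters, from 250 bases before to 50 bases after the annotated start, were matched by symbol for 8 of the 9 rule genes in 9 entries; Ccna2 was not matched. The core of the cell cycle homology region was searched on both strands as TTTGAA or as its variant TTTAAA. The CCAAT box was searched on both strands too. On the other strand the first motif appears in the printed letters as TTCAAA. The box appears there as ATTGG, and motifs can overlap. Stretches upstream of the start and outside annotated exons are printed with these matches in capitals, for Cdk1 at chr10:69352939-69353012 on the minus strand, Top2a at chr11:99024200-99024299 on the minus strand, Mki67 at chr7:135716465-135716579 on the minus strand, Ube2c at chr2:164769829-164769897 on the plus strand and Birc5 at chr11:117849177-117849236 on the plus strand.
Cdk1: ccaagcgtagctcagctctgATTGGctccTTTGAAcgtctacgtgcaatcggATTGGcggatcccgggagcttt
Top2a: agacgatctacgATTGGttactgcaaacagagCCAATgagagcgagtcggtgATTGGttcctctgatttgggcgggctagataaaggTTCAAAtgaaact
Mki67: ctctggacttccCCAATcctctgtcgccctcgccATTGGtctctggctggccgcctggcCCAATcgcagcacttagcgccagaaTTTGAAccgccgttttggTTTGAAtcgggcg
Ube2c: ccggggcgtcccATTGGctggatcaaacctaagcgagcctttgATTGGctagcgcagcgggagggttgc
Birc5: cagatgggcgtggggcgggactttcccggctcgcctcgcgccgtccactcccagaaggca
The Cdk1 and Mki67 stretches hold TTTGAA between or beside CCAAT elements, Top2a holds it on the other strand, the Ube2c stretch holds CCAAT alone on the other strand, and the Birc5 stretch holds none of the 3.

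Over the whole windows, TTTGAA or TTTAAA was found in 9 of 9 rule gene entries and in 27.6% of all 32851 promoters. CCAAT was found in 8 of 9 rule gene entries and in 37.4% of all promoters. A TTTGAA or TTTAAA together with a CCAAT stood in 8 of 9 rule gene entries, in 24 of 51 entries of spindle, kinetochore and cytokinesis genes, in 8 of 44 of S phase genes and in 10.7% of all promoters. Each match is a description of letters, not a binding site.

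Facts of the libraries bear on all values below. G2/M barcodes were deeper than the remaining kept barcodes, with medians of 5813, 4472 and 3964 UMIs in control, photon and proton against 2743, 2650.0 and 2135. Summed over barcodes they held 888919, 6940315 and 3837874 UMIs, so control values have the widest counting error. Mitochondrial genes held 2.66%, 1.85% and 1.79% of these UMIs, and ribosomal protein genes 17.3%, 19.8% and 23%. No doublets were removed, and 42.7% of the control, 17.7% of the photon and 20.8% of the proton G2/M barcodes lay among the deepest 5% of their library. Between 49 and 56 kept barcode sequences were shared between each pair of libraries, and none of them was a G2/M barcode in both. Levels are given as CPM, the UMIs of a gene per 1000000 UMIs of the summed barcodes, always in the order control, photon, proton, and a ratio is followed by its exact 95% counting interval, which covers counting error only.

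The label was checked against other markers. Cytokeratin and Epcam transcripts were present in the G2/M barcodes of all libraries, Krt5 at 1028 CPM without irradiation, 1277 after photons and 997 after protons and Epcam, an epithelial surface protein, at 1925, 1569 and 724 CPM. The 9 fibroblast markers summed to 1.12, 1.01 and 0.521 CPM, with Pdgfra at 0 in control and photon and Lum at 0 throughout. The 12 immune markers summed to 4.5, 1.87 and 2.08 CPM, with Ptprc, Cd3e and Adgre1 at 0 throughout. The 7 endothelial markers summed to 6.75, 2.59 and 2.08 CPM, the 8 myoepithelial markers to 3.37, 5.62 and 3.65 CPM, and haemoglobin genes were at 0 throughout. The 15 acinar markers summed to 488, 77.4 and 135 CPM, and in control 1 barcode of 8609 UMIs and 31 rule UMIs held all 147 Dcpp1 and all 174 Dcpp3 UMIs of the control G2/M barcodes.

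S phase transcripts accompanied the late ones. After thinning each barcode to 2000 UMIs, which left 138 control, 1402 photon and 811 proton G2/M barcodes, the S phase list gave a median of 6, 6 and 4 UMIs and the mitotic lists without their tubulin, Stmn1 and Arl6ip1 genes a median of 13, 10 and 9. More S phase than mitotic UMIs were found in 29.7% of the control, 32.6% of the photon and 22.7% of the proton barcodes. The rule genes Top2a and Mki67 are also transcribed in S phase, and no boundary to S phase was drawn, so the members are called G2/M barcodes by their rule.

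G2/M barcodes made up a larger part of the irradiated libraries. They were 1.08% of kept barcodes in control (95% Clopper-Pearson interval 0.912% to 1.27%), 9.52% in photon (9.06% to 10.0%) and 6.29% in proton (5.89% to 6.71%). No rule UMI at all was found in 92.8% of kept control barcodes, 76.8% of photon and 81.6% of proton barcodes. Just outside the threshold, with 3 rule UMIs, lay 25 control, 260 photon and 228 proton barcodes. Just inside, with exactly 4, lay 11, 215 and 174, and with 4 to 5 lay 21, 393 and 301. The order of the libraries was the same with at least 10 rule UMIs, where the shares were 0.734%, 3.84% and 2.11%, and without the deepest 5% of barcodes, where they were 0.653%, 8.25% and 5.24%.

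Among G2/M barcodes, those of control were the richest in rule UMIs. The control median was 15 rule UMIs, against 8 after photons and 7 after protons, with upper quartiles of 26.5, 14 and 11 and highest values of 77, 105 and 40. At least 20 rule UMIs were found in 35.7% of the control, 14.8% of the photon and 7.4% of the proton G2/M barcodes. In that richest class the order of the shares of kept barcodes was 0.386% in control, 1.41% in photon and 0.466% in proton. Depth differed too, and control members with at least 20 rule UMIs had a median of 7202 UMIs against 5577.5 in photon and 6441 in proton. The part of depth in the differences was not tested.

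**Figure D1:**
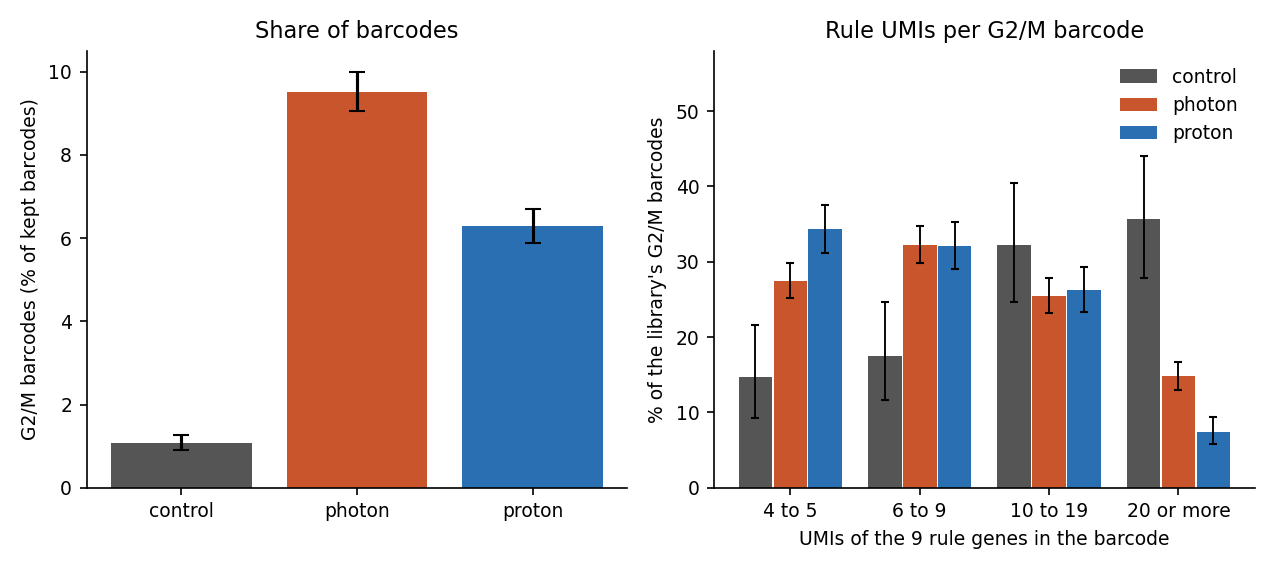
Left, G2/M barcodes as a percentage of the kept barcodes of each library, and right, the percentage of each library's G2/M barcodes in 4 classes of rule UMIs; bars are shares and lines are 95% Clopper-Pearson intervals that cover counting error only. The share is 1.08% in control, 9.52% in photon and 6.29% in proton, while the class with at least 20 rule UMIs holds 35.7% of the control members and 7.4% of the proton members.

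The rule genes themselves differed in their balance between libraries. Ube2c, the ubiquitin conjugating enzyme of the anaphase promoting complex, was the most abundant in each library at 656 CPM without irradiation, 534 after photons and 482 after protons. Cenpf, a large kinetochore protein, stood at 562, 286 and 193 CPM, and Prc1, which bundles microtubules of the central spindle, at 366, 249.6 and 168 CPM. Both were highest in control and lowest in proton. Top2a, the topoisomerase that untangles chromosomes, stood at 433, 338 and 412 CPM, and Mki67, the source of the Ki-67 antigen that coats mitotic chromosomes, at 384, 209 and 324 CPM. Photon, not proton, held the lowest level of these 2 genes. Birc5, the survivin subunit of the chromosomal passenger complex, was 439, 363 and 204 CPM, and Cdk1 was 232, 182 and 142 CPM. Ccnb1 stood at 109, 83.9 and 69.6 CPM and Ccna2, cyclin A, at 97.9, 91.6 and 90.4 CPM.

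The make-up of the rule UMIs differed as well. Top2a took 13.2%, 14.5% and 19.7% of all rule UMIs in control, photon and proton, and Cenpf took 17.2%, 12.3% and 9.27%. Birc5 was found in 83.2% of control, 79.7% of photon and 55.8% of proton G2/M barcodes. All 9 genes were found together in 10.5%, 3.63% and 1.59% of them, and at most 2 of the 9 in 4.2%, 5.66% and 9.23%. A barcode with fewer rule UMIs can show fewer of the 9 genes, and the medians were 15, 8 and 7 rule UMIs. The part of rule UMIs in these shares was not tested. Photon barcodes and proton barcodes were shallower than control ones, as given above, and thinning to 2000 UMIs left Top2a in 52.2%, 42.2% and 49.6% of G2/M barcodes, against 78.3%, 63.3% and 69.4% unthinned.

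**Figure D2:**
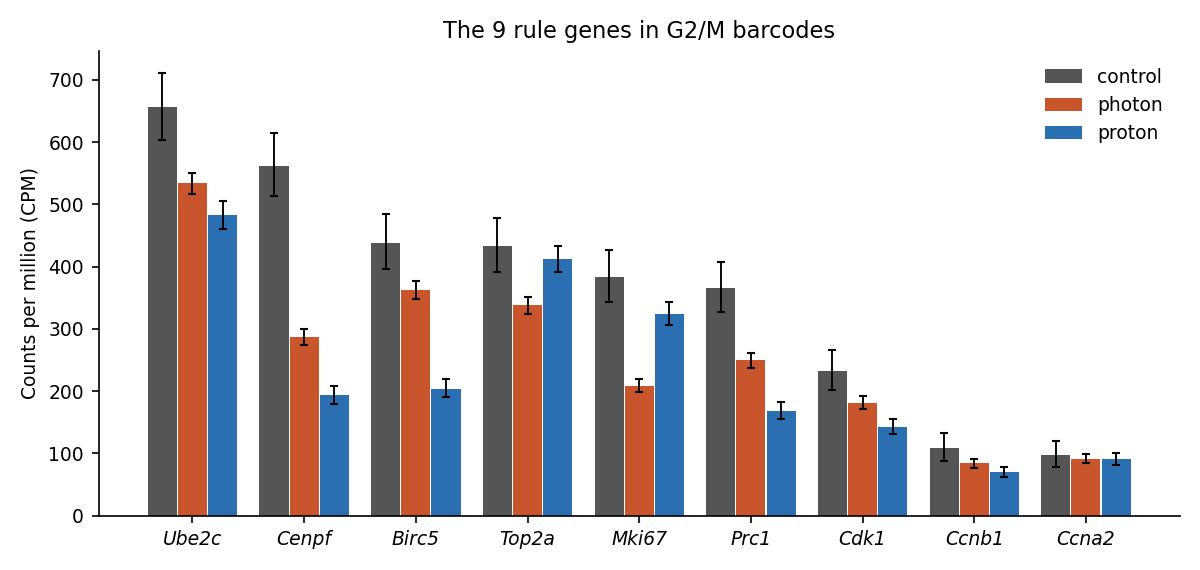
Level of the 9 rule genes in CPM summed over the G2/M barcodes of control, photon and proton, with exact 95% Poisson intervals for counting error only. Cenpf, Prc1 and Cdk1 are highest in control and lowest in proton, whereas Top2a and Mki67 are lowest in photon.

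Across all genes, the G2/M barcodes of the irradiated libraries were compared with those of control by size alone, because 1 library per group allows no test. A gene was measured when its mean over the 2 compared libraries was at least 25 CPM and was called when its ratio was at least 1.5-fold. In photon against control, 212 of 5576 genes were called higher (3.8%) and 541 lower (9.7%). In proton against control, 739 of 5782 were called higher (12.8%) and 1143 lower (19.8%). In proton against photon, 1313 of 5641 were called higher (23.3%) and 980 lower (17.4%). Both comparisons with control share the same control barcodes. The direction of the called genes depended on the scaling: higher genes were 28.2% of those called in photon against control, and 62% when libraries were scaled by the median of gene ratios; the median log2 ratio of all genes was -0.11. For proton against control the figure was 39.3% and 52.9% when mitochondrial and ribosomal protein genes were left out of the total. For proton against photon it was 57.3% and 43.6% with the median of gene ratios.

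The genes that start mitosis summed to a lower level in the proton G2/M barcodes, and in the photon ones their summed level was lower except when classes of rule UMIs had equal weight. The list of mitotic kinases and entry factors, which excludes the rule genes, summed to 1695 CPM without irradiation, 1446 after photons and 1166 after protons. Of its 17 measured genes 1 was higher by this fold and 2 lower after photons, the median log2 ratio being -0.26, and 0 higher and 7 lower in proton, with a median of -0.40. Of all genes 3.8% were higher and 9.7% lower in photon, near the share of this list, and 19.8% were lower in proton. Plk1, a kinase that drives mitotic entry and centrosome maturation, was the gene called higher in photon, at 57.4, 88.5 and 68.3 CPM, a ratio of 1.54 (1.16 to 2.09) in photon and 1.19 (0.879 to 1.64) in proton. Ttk, the spindle checkpoint kinase, was at 39.4, 21.9 and 33.4 CPM. Ccnb2, a B-type cyclin, was at 127, 100.1 and 62.5 CPM, and Cks2, a small partner of CDKs, at 352, 288 and 172 CPM. Both were lower in proton than in control, by ratios of 0.492 (0.392 to 0.621) and 0.49 (0.428 to 0.562). Aurka, a spindle pole kinase, differed little at 52.9, 58.9 and 45.3 CPM.

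Genes of the spindle, kinetochore and cytokinesis summed to 7565 CPM without irradiation, 5811 after photons and 4766 after protons in G2/M barcodes. In photon 5 of 44 measured genes were called lower and none higher, with a median log2 ratio of -0.38, and in proton 16 of 46 were called lower and none higher, with a median of -0.41. Of all genes 9.7% were called lower in photon, close to the share of this list, and 19.8% in proton. Nusap1, a spindle microtubule protein, stood at 182, 105 and 98.5 CPM, and its ratio to control was 0.575 (0.484 to 0.686) in photon. Kif11, the motor that separates spindle poles, stood at 163, 84.6 and 131 CPM, and was lowest in photon. Stmn1, which destabilises microtubules, was among the most unequal genes at 904, 562 and 188 CPM, a ratio of 0.621 (0.575 to 0.671) in photon and 0.208 (0.188 to 0.23) in proton. Tubb4b, a beta tubulin, stood at 735, 722 and 364 CPM, whereas the alpha tubulin gene Tuba1b stood at 147, 152 and 205 CPM and was highest in proton. Anln, a scaffold of the contractile ring, was at 169.9, 129.5 and 188 CPM.

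These 2 lists were higher with the rule UMIs within every library, and the richest class was a larger part of the control members, as given above. The spindle list stood at 3072, 3907 and 3478 CPM among barcodes of the 3 libraries with 4 to 5 rule UMIs, and at 10164, 9054 and 7648 CPM in those with at least 20. When the 4 classes of rule UMIs were given equal weight, an alternative added after seeing the data, the summed log2 ratio of the spindle list went from -0.38 to -0.06 in photon and from -0.67 to -0.27 in proton. That of the mitotic kinase list went from -0.23 to 0.06 and from -0.54 to -0.19. Ccnb1 in proton turned from lower to 0.07 log2 higher with this weighting.

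Mitotic exit genes summed to a lower level in proton. G2/M barcodes with at least 20 rule UMIs were 35.7% of the control and 7.4% of the proton members. Equal weighting of the classes of rule UMIs was not run for this list. The list of the anaphase promoting complex and its regulators summed to 2051 CPM without irradiation, 1872 after photons and 1411 after protons, with 0 and 0 of 15 measured genes called higher and lower in photon and 0 and 6 in proton, where 19.8% of all genes were lower. Cdc20, the activator that starts anaphase, was at 109, 96.4 and 57.1 CPM, and Fzr1, the activator of G1, at 30.4, 23.8 and 26.8 CPM. Bub3, a checkpoint protein, was at 179, 154 and 63.6 CPM, with a ratio in proton of 0.355 (0.29 to 0.437). The subunit Anapc5 was at 74.2, 86.7 and 93.5 CPM.

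Chromatin genes that cells need for condensation and new nucleosomes summed to a lower level in the proton library. Its G2/M barcodes also held fewer rule UMIs than those of control, as given above. The list summed to 8993 CPM without irradiation, 7624 after photons and 4820.1 after protons, and 12 of 24 measured genes were called lower and none higher in proton, where 19.8% of all genes were lower, against 3 lower and 1 higher of 25 in photon, near the 9.7% and 3.8% of all genes. H2afz, a replacement histone, was at 2621, 2153 and 1069.6 CPM, and Hmgb2, a DNA-bending protein, at 1057, 972 and 546 CPM. The condensin subunit genes Smc4 and Ncapg were at 375, 263 and 291 CPM and 36, 28.2 and 53.2 CPM. The same list was lower in proton also outside the G2/M barcodes, at 2567, 2754 and 1674 CPM.

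Replication genes summed to a lower level in proton. In photon their summed log2 ratio of -0.15 turned to 0.03 with the median of gene ratios and to 0.00 with depth matched, but was -0.28 when classes of rule UMIs had equal weight. The S phase list summed to 3927 CPM without irradiation, 3548 after photons and 2633 after protons in G2/M barcodes, with 1 of 38 genes called lower in photon and 17 of 39 in proton, where 1 was called higher. Of all genes 9.7% were lower in photon and 19.8% in proton. Pcna, the clamp of DNA polymerase, was at 125, 118 and 109 CPM, and Rrm1, a subunit of ribonucleotide reductase, at 130.5, 136 and 159 CPM. Dut, which keeps uracil out of DNA, was at 399, 327 and 149 CPM, with a ratio in proton of 0.373 (0.326 to 0.427), and Slbp, which binds histone transcripts, at 128, 107 and 36.5 CPM, with a ratio of 0.284 (0.221 to 0.367). Mcm5, of the licensing helicase, was at 37.1, 30.1 and 37.5 CPM. In each library the S phase list was lower in barcodes with at least 20 rule UMIs than in those with 10 to 19, in control 3033 against 4701 CPM, in photon 2429 against 3909 and in proton 2227 against 2637.

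Interferon response genes had the highest summed ratio of the 30 lists in the G2/M barcodes of both irradiated libraries. Interferons are signals of infected or damaged cells, and their targets block viruses and present antigen. The list of 60 genes summed to 2418 CPM without irradiation, 13132 after photons and 13885 after protons, ratios of 5.43 (5.2 to 5.67) in photon and 5.74 (5.5 to 6) in proton. Of 36 measured genes 34 were called higher and 1 lower in each comparison, with a median log2 ratio of 3.18 in photon and 2.95 in proton, against medians of all genes of -0.11 and -0.05, and of all genes 3.8% and 12.8% were called higher. Because a gene near 0 in control is measured only through its high irradiated level, these counts describe the genes measured and not all 60.

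Ifi27l2a, an interferon target, stood at 341 CPM without irradiation, 3885 after photons and 6059 after protons. Bst2, tetherin, which holds budding virus at the membrane, stood at 159, 1867 and 1387 CPM. Isg15, a ubiquitin-like modifier, was at 67.5, 1459 and 728 CPM and was higher in photon than in proton, with a proton over photon ratio of 0.499 (0.478 to 0.52). Irf7, a transcription factor of the response, was higher too, at 27, 389 and 342 CPM. The sensors Ddx58 and Ifih1, which detect foreign RNA, were at 29.2, 106 and 138 CPM for the first and 33.7, 76.7 and 122 CPM for the other. Ly6e was already high in control at 996, 1346 and 1595 CPM. Ifi27 was the gene called lower, at 211, 26.1 and 18.8 CPM.

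Several of these genes were near 0 in control G2/M barcodes, and UMI counts are given in the order control, photon, proton. Rsad2, viperin, had UMI counts of 1, 500 and 249, ratios of 64 (11.4 to 2534) and 57.7 (10.3 to 2287). Ifit3, which binds foreign RNA together with its relatives, had UMI counts of 1, 1549 and 415, ratios of 198 (35.6 to 7841) and 96.1 (17.2 to 3806), and its close copy Ifit3b may share its reads. The GTPase gene Iigp1 had UMI counts of 0, 531 and 303. With control set at the floor of 3 UMIs, its ratios were 22.7 in photon and 23.4 in proton. The lower limits of their counting intervals were 18.4 and 18.9, and the intervals had no upper limit. Oasl2, of the oligoadenylate synthetase family, had UMI counts of 7, 1060 and 540, and its level was 7.87 CPM without irradiation, 153 after photons and 141 after protons.

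The level of the list in G2/M barcodes was close to that in the other cells of the same library. The interferon list summed to 2364 CPM without irradiation, 13577 after photons and 14324 after protons in the remaining barcodes, so G2/M barcodes held 1.02, 0.967 and 0.969 times that level in control, photon and proton. Of the measured genes, 4 of 42 in photon were called lower in G2/M barcodes and none higher, where 14% and 7.27% of all genes were. In proton 5 of 41 were called lower and 1 higher, where 12.8% and 7.4% of all genes were. In control 2 and 2 of 17 were, where 17% and 13% of all genes were. Ifit3 was lower in G2/M barcodes than in the remaining ones, 223 against 413 CPM in photon and 108 against 209 in proton. Ifit1 likewise stood at 106 against 188 CPM in photon and 92.8 against 146 in proton. Isg15 was slightly higher in G2/M barcodes, 1459 against 1234 CPM in photon and 728 against 674 in proton.

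The level did not follow the rule UMIs. In photon the interferon list stood at 13616 CPM in barcodes with 0 rule UMIs and at 13373 CPM in those with at least 20, and in proton at 14385 and 13469 CPM. In control the values were 2359.9 and 2341 CPM. Thinned to 2000 UMIs, Isg15 was found in 9.42%, 88.1% and 69.1% of control, photon and proton G2/M barcodes and in 7.44%, 80.2% and 62.9% of the remaining ones. Unthinned, the shares were 29.7%, 97.1% and 85.3% against 11.9%, 88.3% and 75.2%. UMIs from free RNA in the droplets are part of such shares, and their part was not tested.

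**Figure D3:**
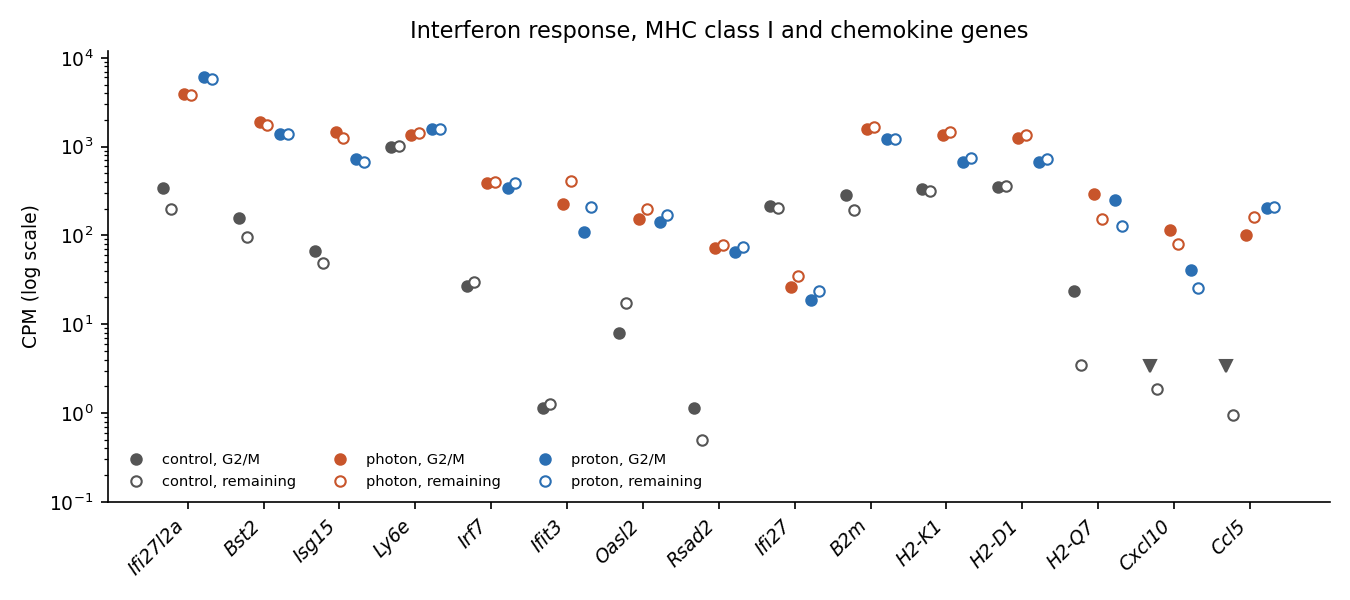
Level of 15 interferon response, MHC class I and chemokine genes in CPM on a log axis, in G2/M barcodes (filled) and remaining barcodes (open) of each library; triangles mark genes with 0 UMIs, drawn at the floor of 3 UMIs. Filled and open points of a library lie close together for most genes, as for Bst2 in photon at 1867 and 1734 CPM, while Ifit3 is lower and H2-Q7 is higher in the G2/M barcodes of photon and proton.

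The promoters of the interferon list hold their own motif. Genes of this response are known to carry the interferon-stimulated response element. It was searched as GAAA followed, after any 2 bases, by GAAA, on both strands, in the same RefSeq windows, and was found in 29 of 59 entries of the interferon list, in 0 of 9 rule gene entries and in 3.44% of all promoters. The stretches that hold it are printed with the motif in capitals for Isg15 at chr4:156200839-156200918 on the minus strand, where 3 matches overlap, for Ifit3 at chr19:34583359-34583428 on the plus strand, with 2 matches on the other strand, and for Rsad2 at chr12:26456543-26456592 on the minus strand.
Isg15: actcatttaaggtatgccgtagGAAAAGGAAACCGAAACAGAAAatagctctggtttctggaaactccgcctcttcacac
Ifit3: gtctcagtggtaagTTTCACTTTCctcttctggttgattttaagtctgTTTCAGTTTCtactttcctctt
Rsad2: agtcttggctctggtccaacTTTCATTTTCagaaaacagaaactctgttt
Matches on the other strand begin and end with TTTC. No match in a rule gene window says only that these letters are not in it.

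Antigen presentation genes of MHC class I, which show peptides from inside the cell to T cells, were higher as well. The list summed to 1754 CPM without irradiation, 6156 after photons and 4155 after protons in G2/M barcodes and to 1507, 6166 and 4109 CPM in the remaining ones. In photon 14 of 16 measured genes were called higher and none lower, and in proton 9 of 14 were, where 3.8% and 12.8% of all genes were called higher. B2m, the light chain, stood at 286, 1598 and 1220.5 CPM, and the heavy chain genes H2-K1 and H2-D1 at 336, 1356 and 675 CPM and at 353, 1241 and 666 CPM. Both heavy chains were higher in photon than in proton. H2-Q7, a nonclassical heavy chain whose reads may be shared with H2-Q6, stood at 23.6, 291 and 248 CPM in G2/M barcodes and at 3.47, 153 and 128 CPM in the remaining ones, and was higher in the G2/M barcodes of each library. The immunoproteasome subunit Psmb9 stood at 18, 129 and 105 CPM and the peptide transporter Tap1 at 21.4, 85 and 75 CPM. Genes as low in control as Psmb9 and Tap1 were measured only through their irradiated level. The counts of called genes in this list therefore describe the genes measured and not the full list.

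The list of genes that sense DNA in the cytosol summed to 564 CPM without irradiation, 1100.2 after photons and 1105 after protons in G2/M barcodes, with 6 of 11 measured genes called higher in photon and 7 of 11 higher and 1 lower in proton, where 3.8% of all genes were higher in photon and 12.8% higher and 19.8% lower in proton. In the remaining barcodes the list summed to 414, 1099.6 and 1092 CPM, so the irradiated levels were close to those in G2/M barcodes. Ifi204, a DNA sensor of the p200 family, stood at 10.1, 107 and 110.5 CPM. Zbp1, which binds Z-form nucleic acid, was at 3.37, 109 and 92.2 CPM. Genes as low in control as Ifi204 and Zbp1 were measured only through their irradiated level. The counts of called genes therefore describe the genes measured and not the full list. Cgas, the DNA sensor that makes cGAMP, stood at 18, 20.5 and 19.5 CPM in G2/M barcodes and at 2.9, 9.13 and 7.18 CPM in the remaining ones; within G2/M barcodes its ratios were 1.14 (0.676 to 2.04) and 1.09 (0.627 to 2). Its partner Tmem173, which encodes STING, was at 10.1, 19.6 and 22.7 CPM. Banf1, which coats chromosomes after mitosis, was at 115, 172 and 190.5 CPM, with ratios of 1.5 (1.22 to 1.85) and 1.66 (1.35 to 2.06).

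Among chemokines, Cxcl10 and Ccl5, which attract T cells, were at 0 UMIs in the 143 control barcodes. Cxcl10 stood at 114 CPM in photon and 41.2 CPM in proton. With control set at the floor of 3 UMIs, its ratios were 33.9 and 12.2. The lower limit of the counting interval of its photon ratio was 27.5. Ccl5 stood at 102 and 202 CPM, with ratios of 30.3 in photon and 59.8 in proton against the same floor and lower limits of 24.6 and 48.5. Few barcodes held them: thinned to 2000 UMIs, Ccl5 was found in 2.85% of photon and 4.44% of proton G2/M barcodes and in 4.44% and 5.22% of the remaining ones, and unthinned in 4.14% and 6.66% of G2/M barcodes. Cxcl10 was found, thinned, in 9.63% and 5.3% of G2/M and 5.59% and 3.34% of remaining barcodes, and unthinned in 16.6% and 8.63% of G2/M barcodes. Il33, an alarmin of epithelial nuclei, was lower in both at 237 CPM without irradiation, 139 after photons and 117 after protons. The neutrophil attractant Cxcl1 stood at 108, 115 and 39.1 CPM.

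Cdkn1a was lower in G2/M barcodes than in the rest. Cdkn1a stood at 130.5 CPM without irradiation, 212 after photons and 124 after protons in G2/M barcodes and at 159, 334 and 193 CPM in the remaining ones, a photon over control ratio of 1.63 (1.35 to 1.98) against 2.1 (2.04 to 2.16). Proton over control ratios were 0.952 (0.776 to 1.18) and 1.21 (1.17 to 1.26). In photon Cdkn1a stood at 358 CPM in barcodes with 0 rule UMIs, 255 with 1, 193 with 2 and 184 with 4 to 5, and at 227 with at least 20. In proton it stood at 205 CPM with 0 and 106 with 4 to 5 rule UMIs, and at 142, 118 and 137 in the 3 richer classes. In control it showed no steady course, at 159 CPM with 0, 106 with 4 to 5 and 171 with 10 to 19 rule UMIs. Thinned to 2000 UMIs, Cdkn1a was found in 21%, 27.3% and 17.4% of G2/M barcodes and in 21.6%, 37.5% and 26.4% of the remaining ones. Unthinned, the shares were 40.6%, 47.4% and 34.2% against 31.8%, 49.8% and 38.2%.

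The wider list of p53 targets summed to 2799 CPM without irradiation, 3002 after photons and 2597 after protons in G2/M barcodes and to 3151, 3799 and 3385 CPM in the remaining ones. Within G2/M barcodes 1 of 21 measured genes was called higher and 1 lower in photon, where 3.8% and 9.7% of all genes were, and 4 higher and 2 lower in proton, where 12.8% and 19.8% were. In the remaining barcodes 9 of 21 were called higher in photon, where 4.68% of all genes were, and 10 of 23 in proton, where 11.1% were. Mdm2, the ligase that degrades p53, was at 55.1, 80.7 and 96.7 CPM, and Trp53inp1, a pro-apoptotic target, at 66.4, 88 and 158 CPM and highest in proton. Bax, which opens mitochondria in apoptosis, was at 231, 257 and 215 CPM, and Ccng1, cyclin G1, at 190.1, 191 and 239 CPM. In the remaining barcodes Ccng1 stood at 161, 291 and 310.2 CPM.

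The list of CDK inhibitors and pocket proteins summed to 899 CPM without irradiation, 935 after photons and 764 after protons, a photon log2 ratio of 0.06 that turned to -0.01 with depth matched, with 1 higher and 1 lower of 12 measured genes in photon and 0 higher and 5 lower in proton, where all genes gave 3.8% and 9.7% in photon and 12.8% and 19.8% in proton. Cdkn2a, a marker of senescence, was at 69.7, 95.1 and 59.7 CPM, and the antiproliferative gene Btg2 at 97.9, 98.8 and 36.2 CPM. The list of DNA damage checkpoint and repair genes summed to 1547, 1284 and 1299 CPM in G2/M barcodes, with 0 higher and 2 lower of 21 measured genes in photon and 1 higher and 6 lower of 22 in proton, near the same shares of all genes in photon. H2afx, the histone that is marked at breaks, was at 263, 257 and 136 CPM, and Chek1, a checkpoint kinase, at 33.7, 20.5 and 16.4 CPM. Brca1, a repair scaffold, was at 31.5, 30.0 and 38 CPM. The repair list was 2.51, 2.07 and 1.94 times as high in G2/M barcodes as in the remaining ones of control, photon and proton.

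**Figure D4:**
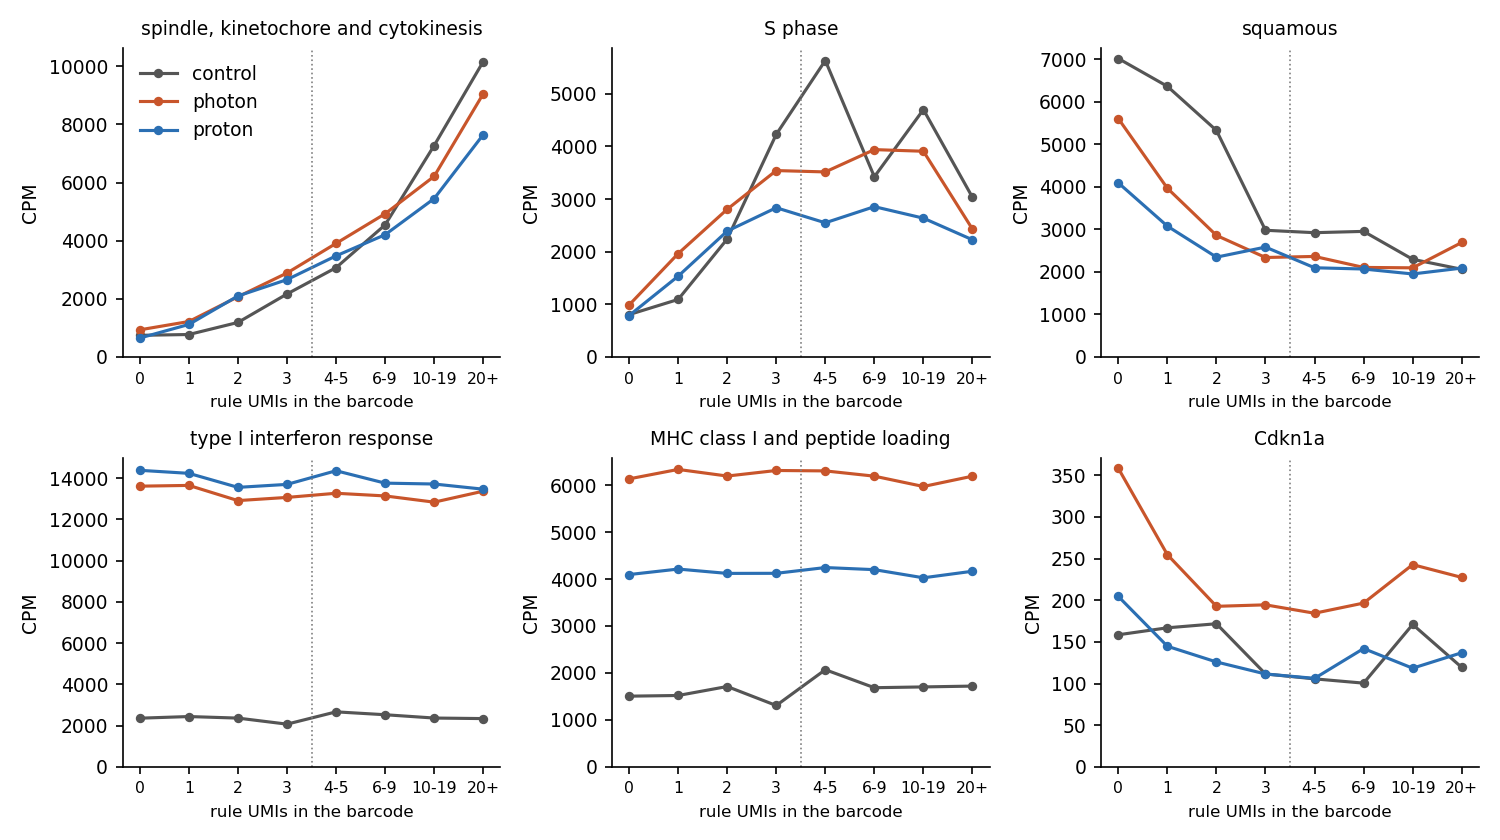
Level of 5 gene lists and of Cdkn1a, in CPM summed over all kept barcodes with the same number of rule UMIs, for each library; G2/M barcodes lie right of the dotted line. The spindle list climbs with rule UMIs in each library, the squamous list and Cdkn1a in photon are highest at 0 rule UMIs, and the interferon and MHC class I lists stay level in photon and proton, in photon at 13616 and 13373 CPM at the ends of the interferon panel.

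The G2/M barcodes held duct keratins and fewer squamous transcripts than the remaining barcodes. The squamous list summed to 2373 CPM without irradiation, 2274 after photons and 2043 after protons in them against 6948, 5197 and 3887 CPM in the remaining barcodes. Ly6d, a surface protein of stratified epithelium, carried most of this, at 1397, 950.1 and 621 CPM in G2/M and 4049, 2808 and 1766 CPM in remaining barcodes, with Sprr1a, a cornified envelope protein, at 438, 378 and 378 CPM and at 2327, 1681 and 1445 CPM. The list was not uniform, since Krtdap, a keratinocyte differentiation factor, was higher in the G2/M barcodes at 137, 361 and 514 CPM against 33.1, 142 and 222 CPM. The basal duct list stood at 6870.1, 7996 and 4855 CPM in G2/M barcodes and at 6643, 6818 and 4184 CPM in the remaining ones, and its keratin Krt14 at 2352, 2961 and 1195 CPM and at 1518, 1950.3 and 772 CPM. The luminal duct list summed to 9568, 9704 and 7064 CPM in G2/M and 9279, 12002 and 9252 CPM in remaining barcodes, with Wfdc2, a secreted duct protein, at 4982, 4596 and 4072 CPM in G2/M and 5472, 6599 and 6005 CPM in remaining barcodes. Psca, a surface protein of the same family as Ly6d, was at 1.3 CPM in photon G2/M barcodes and 79.8 CPM in the remaining photon barcodes.

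Between libraries, Krt14 and Krt17 of the G2/M barcodes were lower in proton, Krt14 at a ratio of 0.508 (0.482 to 0.535) and Krt17 at 0.639 (0.602 to 0.678), and Krt15, a basal keratin, stood at 603 CPM without irradiation, 552 after photons and 179 after protons. Krt5 had a ratio of 0.97 (0.902 to 1.04). Itgb4, the integrin of hemidesmosomes, was higher in proton at 184, 144 and 309 CPM. The luminal keratin Krt7 was higher in photon at 936, 1576 and 943 CPM, and Epcam was lower in proton, at a ratio of 0.376 (0.354 to 0.4). Among squamous genes Krt6a, a keratin of activated epithelium, stood at 86.6, 182 and 153 CPM, and Krt13 at 20.2, 98.8 and 57.1 CPM. Both were higher in the irradiated G2/M barcodes, whereas Ly6d and Sprr1a, given above, were lower. The squamous list had summed log2 ratios of -0.06 in photon and -0.22 in proton. The photon ratio turned to 0.11 with the median of gene ratios. Of its 8 measured genes 3 were called higher and 0 lower in photon, and 3 higher and 1 lower in proton. Of all genes 3.8% were higher and 9.7% lower in photon, and 12.8% and 19.8% in proton.

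More genes were called between G2/M and remaining barcodes in control than in the irradiated libraries. The shares of all measured genes were 30.1% in control, 21.3% in photon and 20.2% in proton. The control values have the widest counting error. Control G2/M barcodes also held more rule UMIs, with a median of 15 against 8 after photons and 7 after protons. In the remaining barcodes the rule genes summed to 23.9 CPM without irradiation, 74.8 after photons and 75.5 after protons. The part of counting error and of rule UMIs in these shares was not tested. A list of genes of spread epithelial cells, drawn from earlier results on these data, summed to 13672 CPM without irradiation, 13317 after photons and 13289 after protons in G2/M barcodes, a log2 ratio of -0.04 in both irradiated libraries whose sign changes with the scaling, and to 5310.0, 10434 and 10958 CPM in the remaining ones. S100a6, a calcium-binding protein that held most of these UMIs, stood at 11429.6, 11111 and 11078 CPM in G2/M and at 3902, 8522 and 9178 CPM in remaining barcodes. Lgals1, galectin 1, was at 352, 373 and 379.6 CPM in G2/M and 45.4, 190.2 and 229.5 CPM in remaining barcodes. Vim, vimentin, was at 56.2, 117 and 80.5 CPM in G2/M and 7.95, 53.6 and 31.6 CPM in remaining barcodes. Cholesterol synthesis genes summed to 1981, 2001 and 1509 CPM in G2/M barcodes and to 640.4, 1062 and 764 CPM in the remaining ones, with Fdps, which makes farnesyl diphosphate, at 258, 350.0 and 233 CPM and at 47.8, 156 and 96.3 CPM. Depth differed between G2/M and remaining barcodes as given above, most in control, and its part was not tested.

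**Figure D5:**
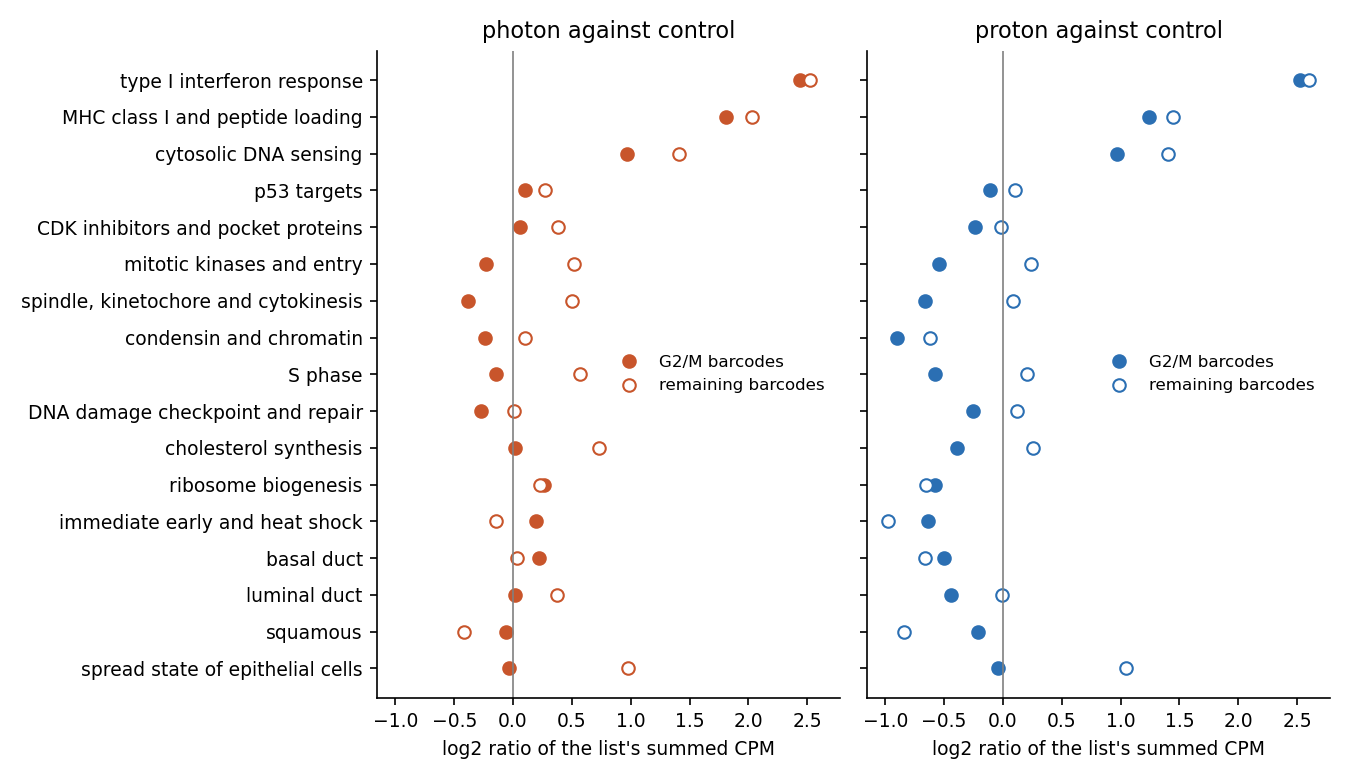
Log2 ratio to control of the summed level of 17 gene lists in photon (left) and proton (right), in G2/M barcodes (filled) and in remaining barcodes (open), each from 1 library. The interferon list stands at 2.44 and 2.52 in G2/M barcodes. The spindle list lies below 0 in G2/M barcodes, at -0.38 and -0.67. With equal weight of the classes of rule UMIs these values are -0.06 and -0.27. The spindle list lies above 0 in remaining barcodes, which include those with 1 to 3 rule UMIs. At 0 rule UMIs it stands at 744 CPM without irradiation, 934 after photons and 652 after protons, so proton lies below control there. The list of spread epithelial cells is at -0.04 in both G2/M comparisons, where its sign changes with the scaling.

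Ribosome biogenesis genes and immediate early and heat shock genes summed to lower levels in proton than in photon. The ribosome biogenesis list summed to 4123 CPM without irradiation, 4936 after photons and 2759 after protons in G2/M barcodes, with 0 of 19 measured genes called in either direction in photon and 7 of 21 called lower in proton, where 19.8% of all genes were. Npm1, a nucleolar chaperone, was at 1619, 2113 and 953 CPM, and Ncl, nucleolin, at 763, 853 and 461 CPM. In the remaining barcodes the list stood at 3162, 3715 and 2010.0 CPM. Immediate early and heat shock genes summed to 4676, 5355 and 3011 CPM, with 4 higher and 3 lower of 22 in photon and 0 higher and 8 lower of 21 in proton, where 3.8% and 9.7% of all genes were in photon and 12.8% and 19.8% in proton. In the remaining barcodes the immediate early and heat shock list stood at 6270, 5677 and 3191 CPM. Fos and Jun, which form the AP-1 factor, were at 172, 379 and 114 CPM for Fos and 411, 560.5 and 126 CPM for Jun. Atf3, a stress-induced factor, stood at 108, 298 and 96.1 CPM and was highest in photon. Ccnd1, cyclin D1, was at 628, 652 and 542 CPM, and its relative Ccnd2 at 271, 357 and 395 CPM. The list of G1 and G1/S genes differed little in G2/M barcodes, at 1509, 1589 and 1534 CPM.

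Among genes ranked by ratio without regard to lists, the 12 highest in each irradiated library included Ifit3, Rsad2, Ifit1, Zbp1, Iigp1 and Ccl5, given above. These genes held 0 to 3 UMIs in the control G2/M barcodes. Genes this low in control were measured only through their irradiated level, and their order rests on few control UMIs. Plac8 was also among them, at 1.12 CPM without irradiation, 57.3 after photons and 65.9 after protons, and Fabp4, a fatty acid carrier, at 2.25, 101 and 92.8 CPM. Ddx60, a helicase of the antiviral response, was at 4.5, 53 and 108 CPM and higher in proton than in photon. Trim30a, whose reads may be shared with close copies, was at 5.62, 163 and 146 CPM, and Ifi203 at 1.12, 70.7 and 107 CPM. Plac8, Fabp4 and Ifi203 held 1, 2 and 1 control UMIs. Their photon over control ratios were 51 (9.1 to 2018), 44.9 (12.4 to 371) and 62.9 (11.2 to 2489). In the remaining barcodes these ratios were 68.6, 10.2 and 12. At the low end, Dcpp1 and Dcpp3 came from the 1 control barcode described above. Il18r1, a receptor chain for interleukin 18, stood at 83.2, 20.7 and 16.9 CPM in G2/M barcodes and at 21.3, 23 and 19.4 CPM in the remaining ones. Mill1, an MHC-like gene, stood at 65.2, 15 and 17.5 CPM. Orm1, an acute phase protein whose reads may be shared with Orm3, stood at 47.2, 13.8 and 11.2 CPM, and the list of acute phase genes drawn from earlier results on these data summed to 432, 268 and 193 CPM in G2/M and 1019, 518 and 339 CPM in remaining barcodes. Gstp1, a glutathione transferase, stood at 231, 127 and 39.6 CPM. Cirbp, a cold-induced RNA-binding protein, stood at 177, 133 and 36.2 CPM, and Srsf5, a splicing factor, at 515, 342 and 128 CPM; both were lowest in proton. The other lowest genes in photon were Apoc1, Fbxo2, Nos1ap, Stxbp6, Gm48099 and C3, with photon over control ratios from 0.293 for Apoc1 to 0.377 for C3. In proton they were Gm20186, Fbxo2 and mt-Nd6, with ratios of 0.162, 0.175 and 0.251.

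Proton and photon G2/M barcodes differed most at genes that differed in the same direction in the remaining barcodes. The highest in proton over photon were Lars2, at 55.1 CPM without irradiation, 59.1 after photons and 251 after protons, a ratio of 4.25 (3.78 to 4.78), Gm42418, at 5137, 3939 and 13953 CPM, and AY036118, at 313, 210.4 and 728 CPM. In the remaining barcodes the proton over photon ratios of these 3 genes were 4.2, 3.5 and 3.4. Gm42418 and AY036118 overlap ribosomal RNA repeats and are known to collect reads from ribosomal RNA. At the low end stood Jun, with a ratio of 0.225 (0.204 to 0.247), Ier3, an immediate early gene, with 0.27 (0.233 to 0.31), and Pdia6, a folding enzyme of the endoplasmic reticulum, with 0.287 (0.262 to 0.314). The other 3 highest were Zfp827, Gm20732 and Mib1, with ratios of 3.28, 3.11 and 3.06, and the other 3 lowest Cxcl2, Hist1h2ab and Cirbp, with 0.23, 0.261 and 0.272; reads of Hist1h2ab may be shared with other histone copies. In the remaining barcodes the ratios of Jun, Ier3 and Pdia6 were 0.255, 0.311 and 0.291. Whether these differences follow from the kind of radiation or from the library cannot be told apart with 1 library of each.

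A gene-by-gene comparison of the 2 ratios showed where the G2/M barcodes departed from their library. The photon over control ratio within G2/M barcodes was at least 1.5-fold above that in the remaining barcodes for 2.33% of 5156 genes and at least 1.5-fold below for 4.31%. For proton over control the figures were 4.03% and 4.75% of 5285 genes. Apoe, a lipid carrier, was lower in photon G2/M barcodes at 119 against 231 CPM in control, and higher in the remaining photon barcodes at 72.2 against 45.1 CPM. Vim, by contrast, was higher in both, with photon ratios of 2.08 (1.56 to 2.83) in G2/M and 6.75 (5.98 to 7.63) in remaining barcodes.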

How the data were processed

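Single-cell 3' RNA libraries of control, photon and proton organoids were analysed, 1 library per group. The deposited files hold UMI counts per gene and barcode for 32285 genes; per the submitters' processing notes the authors used Cell Ranger 7.0.1 and mm10, per the file headers 7.0.0, and the annotation release and the handling of introns were not stated in the sources used. UMIs were summed over barcodes, scaled to CPM and compared as ratios with exact conditional 95% intervals, using Python 3.11.15, numpy 2.4.6, scipy 1.17.1 and pandas 2.3.3. With 1 library per group no count model could be fitted and none was run. The ratios and their intervals were tried on simulated counts that held counting error only. Those counts had no spread between cells or libraries and no choice of barcodes by the rule. Thinning was checked on control barcodes. Depth per library, and so precision, is given with the results; intervals and the floor of 3 UMIs cover counting error only.

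Alternatives changed the rule, the depth, the scaling, the CPM filter and the fold. The members and gene lists were chosen with earlier results of these data known, and the lists of spread epithelial cells and of acute phase genes were drawn from such results. Genes named were the 12 highest and 12 lowest ratios against control, the 6 at each end of proton against photon, the rule genes, and in each list the 6 measured genes with the highest level and the 2 at each end of the ratio. Ifih1, Ddx58, Nusap1, Anln, Pcna, Mcm5, Brca1, Cgas, Tmem173, Tap1, Psca, Apoe, Vim and the markers at 0 were named after their values were seen. Aldoa, Mx1, Ddit3 and Mx2 are not analysed here.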

Additional observations from a re-analysis of the deposited data

Results flagged for a closer look

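Some genes differed from control by at least 1.5-fold in opposite directions in the compared sets of barcodes. With 1 library per group none of these differences was tested, and each ratio is one of summed CPM. Stmn1 had a photon over control ratio of 0.621 in G2/M barcodes and 2.1 in the remaining ones. It is in the spindle list, which was higher with the rule UMIs. Rule UMIs differed as well, with a median of 15 in control G2/M barcodes against 8 in photon. In the remaining barcodes the rule genes summed to 23.9 CPM in control and 74.8 CPM in photon. Their part in the Stmn1 ratios was not tested. Apoe had photon ratios of 0.517 and 1.6. Krt13 had proton over control ratios of 2.82 in G2/M barcodes and 0.651 in the remaining ones. Sncg, gamma synuclein, had photon ratios of 0.582 and 2.48 and proton ratios of 0.446 and 2.12. Within G2/M barcodes, photon and proton ratios to the same control lay on opposite sides for Jund, at 1.62 and 0.628, for Fos, at 2.2 and 0.661, and for Mib1, at 0.503 and 1.54.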

How the results depend on the processing

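The share of G2/M barcodes kept the order photon, proton, control in every alternative run. It was 11.2% in photon and 7.92% in proton with at least 3 rule UMIs, and 6.91% and 4.13% with at least 6. In control, photon and proton it was 1.48%, 13.4% and 11.5% when barcodes were thinned to 2000 UMIs with at least 2 rule UMIs, 0.653%, 8.25% and 5.24% without the deepest 5%, and 0.734%, 3.84% and 2.11% with at least 10 rule UMIs, a limit chosen after seeing the data. The interferon list in G2/M over remaining barcodes was 0.953 in photon and 0.959 in proton after thinning, 0.986 and 1.01 without the deepest 5%, and 0.956 and 0.954 in proton with at least 6 and 10 rule UMIs. With remaining barcodes matched on depth it was 0.954 in control and 0.997 in proton, and as a mean over barcodes 1.12, 1.02 and 1.01 in control, photon and proton, so its side of 1 depends on the setting.

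Counts of called genes moved most with the filter and the fold, which change by construction how many genes can be called. In photon against control, genes called higher numbered 450 and lower 1063 at a mean of at least 10 CPM, 119 and 251 at 50 CPM, 1355 and 7486 with no filter, and 88 and 66 at a fold of 2. They numbered 415 and 254 with the median of gene ratios, 411 and 1134 with depth matched, and 389 higher without the deepest 5%; the cause was not tested. In proton against control they numbered 415 and 730 at 50 CPM, 2485 and 6419 with no filter and 199 and 381 at a fold of 2, with 1307 higher at 10 CPM and 1157 higher without mitochondrial and ribosomal protein genes in the total. In proton against photon they numbered 6658 and 3450 with no filter and 351 and 253 at a fold of 2, with 2058 higher at 10 CPM and 757 at 50 CPM. The proton over control log2 ratio of Gm20732 turned to -0.006 with depth matched, and that of Ccnb1 to 0.071 when classes of rule UMIs had equal weight; the cause was not tested. No paired analysis was possible because each group is 1 library and the labels give no shared replicate numbers, and for the same reason no replicate could be left out. The 143 control barcodes set the precision of every ratio to control.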
